A study of Mus musculus with 9 samples.

Results

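The brains of mice with diabetic neuropathic pain (DNP) were compared with control (CON) brains in 6 of the 9 whole-brain RNA-seq libraries of the series, 3 DNP and 3 CON libraries of 1 mouse each, chosen by the group given in the sample labels. All animals were male C57BL/6 mice, 7 weeks old at the start. DNP mice ate a diet with 60% fat for 4 weeks and were then injected with streptozotocin, a toxin of the insulin-producing beta cells, at 50 mg/kg a day for 7 days, each time after 6 h without food. A fasting blood glucose of 16.7 mmol/L or more defined diabetes, and pain hypersensitivity was tested 4 weeks after the toxin. Only mice with lasting high glucose and lowered pain thresholds were kept as DNP mice. CON and DNP mice both received saline, the vehicle of the baclofen (8 mg/kg, 7 days) that the other 3 mice of the series received. The diet, the toxin, the raised glucose and the choice by pain thresholds occur only together, so their shares in a difference cannot be told apart. Each value averages the cells of a sample labelled whole brain, and by the markers below the regional content differed between libraries. Fewer cells of a type and less RNA per cell cannot be told apart either.

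The question was which gene families and functions differ between the groups beyond the GABAergic, synaptic, NF-kB and glial sets. Neurons depend on glucose and oxygen from the blood, and most of their ATP comes from the respiratory chain, whose subunits are encoded partly in the mitochondrial genome and mostly in the nucleus. Ribosomal protein genes are short and highly expressed, and many have a pyrimidine-rich transcription start. Chromatin regulators, giant ubiquitin ligases, ion channels and adhesion molecules of neurons are, by contrast, encoded by long transcripts. Diabetes in rodents is known to raise circulating corticosterone, which acts on target genes through the glucocorticoid receptor.

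Libraries held 13806845 to 16008129 counts on genes, and 18501 of the 53465 listed genes had enough counts to be tested, 18468 of them with GRCm38 coordinates. The 14 tested neuronal markers were present in all 6 libraries, with summed levels of 11230 to 16020 CPM (counts relative to the TMM-scaled library size). Markers of single brain regions, however, differed within groups. The 14 cerebellar markers summed to 305, 8021 and 1399 CPM in CON and 862, 284 and 237 CPM in DNP, and the 15 brainstem and spinal cord markers to 1, 29 and 5 CPM in CON and 396, 1 and 0 CPM in DNP. CON replicate 2 therefore stood apart by cerebellar and DNP replicate 1 by hindbrain genes, and the 10 olfactory bulb markers were highest in DNP replicate 2, at 648 CPM against 134 to 554 CPM in the other 5 libraries. The 13 choroid plexus markers summed to 562, 310 and 555 CPM in CON and 342, 39 and 1425 CPM in DNP. The 12 striatal markers summed to 1550, 383 and 503 CPM in CON and 309.5, 1731 and 1163 CPM in DNP. For the 14 cortical and hippocampal markers the sums were 1446, 378.5 and 1324 CPM in CON and 650, 1030 and 1180 CPM in DNP. How far this tissue content enters a difference was not tested beyond the values given below without CON replicate 2 and DNP replicate 1 together, or with region marker scores as covariates. Those scores cover only the cerebellar and the brainstem and spinal cord markers, and they use genes of the same libraries.

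No gene passed a Benjamini-Hochberg adjusted p of 0.05 in the quasi-likelihood fit of edgeR. The smallest adjusted p was 0.294, shared by 185 genes. At an unadjusted p under 0.05, the threshold used for all counts of list members below, 1056 genes were higher in DNP (5.71% of those tested) and 1011 were lower (5.46%). The 3 DNP libraries lay wholly above the 3 CON libraries for 1774 genes (9.59%) and wholly below them for 1597 genes (8.63%). DESeq2, the stated tool of the study, called 342 genes at an adjusted p under 0.05 (1.85%), 148 higher (0.8%) and 194 lower (1.05%), and for 335 of them the groups did not overlap. The near-equal split at the unadjusted threshold, with 51.1% higher, depended on scaling and was 1317 higher to 760 lower (63.4%) when counts were scaled by library totals alone and 65.4% to 65.7% in limma on log2 FPKM.

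Genes were named first among those averaging 1 CPM or more whose groups did not overlap, so the separation of these genes follows from their choice. Of those higher in DNP, the smallest p values belonged to S100a16, the globin genes, Lrg1, Cdh19, C4b and Tcirg1. S100a16 (ENSMUSG00000074457, chromosome 3 from 90537254 to 90543151), a calcium-binding protein gene, had 23.6, 18.8 and 16.8 CPM in CON and 58.5, 50.8 and 47.5 CPM in DNP. Every DNP library was more than the highest CON library, and the log2 fold change was 1.40 (SE 0.17). Lrg1 (ENSMUSG00000037095, chromosome 17 from 56119678 to 56122001), which encodes a secreted glycoprotein of vessels and of the acute phase, had 2.06, 1.78 and 2.11 CPM in CON and 10.7, 6.76 and 6.63 CPM in DNP. C4b (ENSMUSG00000073418, chromosome 17 from 34728380 to 34743882), which encodes complement component C4, had 35.4, 24.9 and 35.2 CPM in CON and 79.0, 62.9 and 73.1 CPM in DNP. Their log2 fold changes were 2.01 (SE 0.32) and 1.17 (SE 0.19). Cdh19, a cadherin gene of glia (7.83, 6.91 and 9.62 against 19.6, 19.0 and 16.9 CPM), and Tcirg1, a proton pump subunit gene (15.7, 12.6 and 15.9 against 25.9, 26.1 and 25.1 CPM), were also higher in each DNP mouse. The unannotated transcript Gm37899 had a log2 fold change of 2.06 (SE 0.34). All had an adjusted p of 0.294 in edgeR, and all passed 0.05 in DESeq2, which placed S100a16 at 1.35e-08.

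Lcn2, an iron-carrier gene of the acute phase, had 2 counts in each CON library and 107, 64 and 31 counts in the DNP libraries. Among the genes with the largest differences, several were high in 1 DNP library. Omp, of olfactory sensory axons, had 4, 4 and 2 counts in CON and 15, 569 and 16 in DNP, and Adamts19, a metalloproteinase gene, had 0.332, 0.214 and 0.141 CPM in CON and 1.23, 18.2 and 4.47 CPM in DNP, both highest in DNP replicate 2. Dbh, of noradrenaline synthesis, had 1, 0 and 2 counts in CON and 143, 4 and 10 in DNP, and was highest in DNP replicate 1. Gal, the galanin gene, had 0, 0 and 1 counts in CON and 43, 36 and 13 in DNP.

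Among genes lower in DNP, also taken only from those without overlap, the smallest p values belonged to Ksr2, Gm26794, Nr2c2, Ppm1l, Gabrb2, Hectd4, Arfgef3, Pcdhga12, Pcdhga11, Gm9517, Ash1l and Zfp236. Ksr2 (ENSMUSG00000061578, chromosome 5 from 117414000 to 117775003), a scaffold of the MAP kinase cascade whose loss causes obesity in mice, had 105, 118 and 108 CPM in CON and 63.8, 55.4 and 49.9 CPM in DNP, a log2 fold change of -0.97 (SE 0.14). Ppm1l (ENSMUSG00000027784, chromosome 3 from 69316861 to 69560802), a protein phosphatase gene, had 222, 239 and 230.3 CPM in CON and 140.1, 132 and 127 CPM in DNP, a log2 fold change of -0.79 (SE 0.13). For both, the lowest CON mouse stood well above the highest DNP mouse. Nr2c2, an orphan nuclear receptor gene, had a log2 fold change of -1.09 (SE 0.18), and Arfgef3, which encodes a regulator of secretory granules, one of -0.82 (SE 0.14). Zfp236, a zinc-finger gene, differed by -0.97 (SE 0.17), Gabrb2, a GABA-A receptor subunit gene, by -1.42 (SE 0.24), and the pseudogene Gm9517 by -1.86 (SE 0.33). Gm26794 (log2 fold change -1.10, SE 0.17) lies on the strand opposite to Kcnj3, and the libraries do not mark strand, so reads of the pair cannot be told apart. Each of these 12 genes had an adjusted p of 0.294 in edgeR and passed 0.05 in DESeq2.

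Of the 5 genes with the most negative log2 fold changes among those without overlap, 4 were highest in CON replicate 2, the library with the most cerebellar RNA. Mirt1, a long non-coding RNA gene, had 2.59, 30.1 and 6.39 CPM in CON and 2.1, 1.16 and 1.91 CPM in DNP. Exph5 (20.8, 120.4 and 41.2 against 13.8, 6.14 and 8.60 CPM), Sp5 (0.597, 5.63 and 1.19 against 0.579, 0.478 and 0.131 CPM) and the pseudogene Gm5454 (17.6, 71.3 and 25.4 against 9.63, 7.10 and 4.73 CPM) were highest in the same library. Sesn3, a stress-induced regulator of mTORC1, had 34.4, 180.1 and 195 CPM in CON and 25.5, 22.9 and 13.6 CPM in DNP, high in 2 CON libraries.

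**Figure D1:**
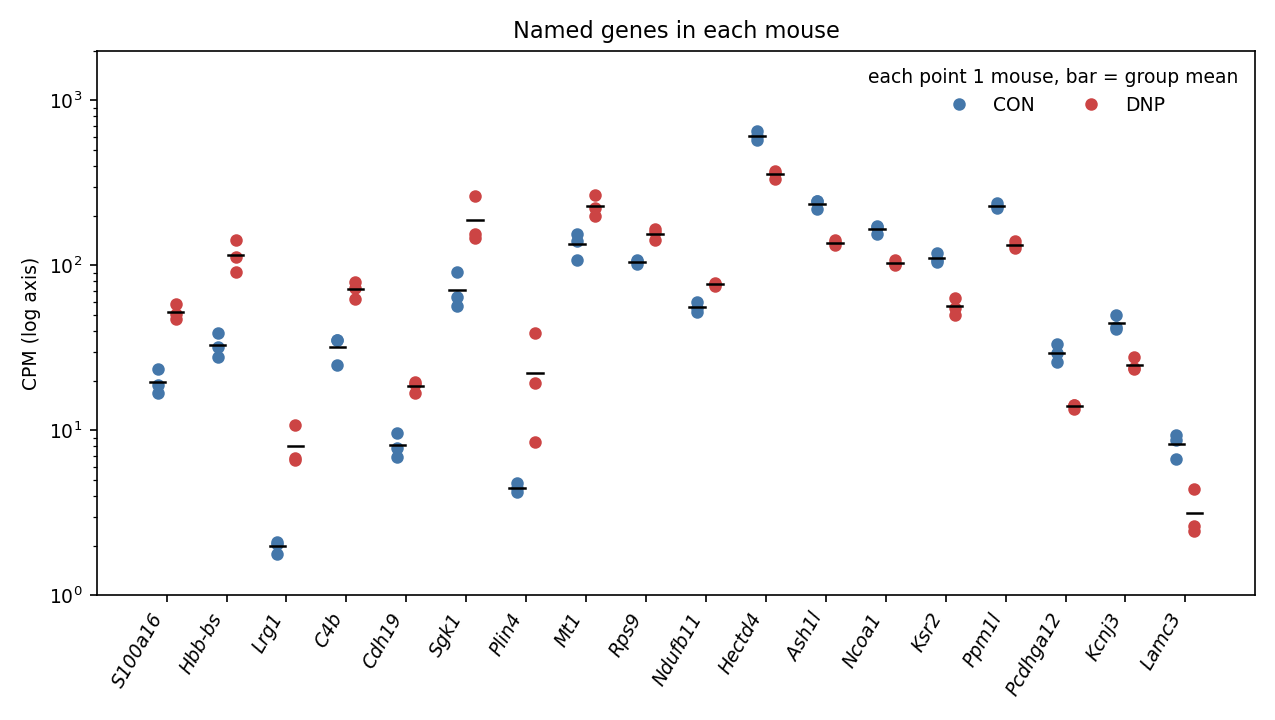
Level of 18 genes in each mouse in CPM (log axis), with CON in blue, DNP in red and a bar at each group mean. The groups do not overlap for any of the 18 genes, which were picked with their values known and in part for lacking overlap. Plin4 has the widest DNP spread, from 8.46 to 38.7 CPM.

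The respiratory chain was the energy pathway with the most members at the threshold. Of its 82 nuclear-encoded subunit genes tested, ATP synthase included, 45 were higher in DNP and 0 lower (54.9%, against 5.71% of all genes), and 80 had a positive log2 fold change, with a median of 0.40 against 0.01 over all genes. The DNP libraries lay wholly above the CON libraries for 52 of the 82, and DESeq2 called 10 of them.

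Complex I, the NADH dehydrogenase that feeds electrons into the chain, held 24 of these genes among 37 tested, and its median log2 fold change was 0.44 with a range of 0.03 to 0.62. Its summed level was 2069, 2156 and 2098 CPM in CON and 3053, 2491 and 2691 CPM in DNP. Ndufb11 (chromosome X from 20615326 to 20617619), an accessory subunit gene, had 51.9, 60.2 and 54.9 CPM in CON and 77.9, 77.0 and 75.5 CPM in DNP, a log2 fold change of 0.46 (SE 0.12). Ndufa2 and Ndufa1, both accessory subunit genes, differed by 0.56 (SE 0.14) and 0.58 (SE 0.15). Between 12 and 15 complex I genes were at the threshold when CON replicate 1, CON replicate 3, DNP replicate 1 or DNP replicate 3 was left out, 13 were with the length offset and 10 with region marker scores as covariates. The median lay between 0.38 and 0.48 whichever library was left out.

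The later complexes showed the same direction. Complex II had 1 gene of 4 at the threshold, Sdhb (96.2, 93.2 and 95.2 CPM against 137, 122.9 and 125 CPM). Its summed level overlapped, with 633, 696 and 605 CPM in CON and 892, 659 and 649 CPM in DNP. Complex III had 2 of 9, among them Uqcrh with 58.8, 64.0 and 54.8 CPM in CON and 98.2, 79.9 and 81.9 CPM in DNP. Complex IV, cytochrome c oxidase, had 9 of 16, and its summed level was 1360, 1144 and 1337 CPM in CON and 1830, 1728 and 1893 CPM in DNP. Cox6c (67.8, 59.1 and 61.7 against 92.9, 88.1 and 98.2 CPM) and Cox7a2l, a factor of supercomplex assembly (99.6, 79.3 and 85.6 against 142, 128 and 126 CPM), passed 0.05 in DESeq2 as well. ATP synthase had 9 of 16, Atp5e among them with a log2 fold change of 0.60 (SE 0.15), and 5 of 16 without CON replicate 1. With region marker scores as covariates, 1 complex IV gene and 3 ATP synthase genes were at the threshold. None of these complexes had a member lower in DNP at the threshold.

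The 13 mRNAs encoded in mitochondrial DNA also had positive log2 fold changes throughout, with 6 at the threshold and a median of 0.40. Their sum was 50400, 40260 and 49990 CPM in CON and 61580, 63360 and 59420 CPM in DNP, and the groups did not overlap for 10 of the 13. mt-Co3, a cytochrome c oxidase subunit gene, had 2455, 1909 and 2353 CPM in CON and 3266, 3577 and 3305 CPM in DNP, a log2 fold change of 0.59 (SE 0.17). All mitochondrially encoded genes together took 4.96% ± 0.544 (SD, n = 3) of the counts of CON mice. In DNP mice they took 6.80% ± 0.186 (SD, n = 3), a difference of 1.84 percentage points with p = 0.1 in an exact two-sided permutation test, the smallest p that 3 mice against 3 allow. Without CON replicate 2, which had the lowest share, 1 of the 13 mRNAs was at the threshold and their median was 0.28. The count was 2 without DNP replicate 2, 3 without DNP replicate 3, 1 with the length offset and 0 with region marker scores as covariates.

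Other routes of energy supply did not stand out in this way. The citric acid cycle had 0 of 16 genes at the threshold, with Mdh2, of malate oxidation, at a log2 fold change of 0.28 (SE 0.13). Glycolysis had 1 of 18, Ldhb, a lactate dehydrogenase gene, with 402, 416 and 362 CPM in CON and 603, 471 and 487 CPM in DNP. The medians of both lists, 0.09 and 0.08, changed sign without CON replicate 2 and DNP replicate 1 together (both under 0). In fatty acid oxidation and ketone use, 3 of 26 genes were higher, among them Acot1, an acyl-CoA thioesterase gene (8.49, 6.63 and 10.7 against 14.5, 13.7 and 15.1 CPM), and Angptl4, a lipase inhibitor gene induced by fasting and by glucocorticoids (0.730, 2.21 and 1.41 against 4.20, 3.89 and 2.36 CPM).

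Genes of insulin signalling and glucose transport were more often lower, with 6 of 29 lower and 1 higher, and a median log2 fold change of -0.26. The higher gene was Slc2a1, a glucose transporter gene, at 0.58 (SE 0.21), and no Slc2a gene of the list was lower at the threshold. With the length offset described below, 4 genes of the list were lower and its median was -0.15. Foxo3, a transcription factor that insulin holds out of the nucleus, had 139.8, 246 and 166 CPM in CON and 98.2, 96.7 and 90.6 CPM in DNP. Igf2, a growth factor made mostly by the meninges and choroid plexus in the adult brain, had 59.2, 68 and 75.4 CPM in CON and 26.6, 39.2 and 43.7 CPM in DNP. Igfbp5, which encodes a binding protein of insulin-like growth factors, differed by -0.49 (SE 0.14). For these 3 genes no DNP library reached a CON library, and 4 genes of the list were lower without CON replicate 1.

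**Figure D2:**
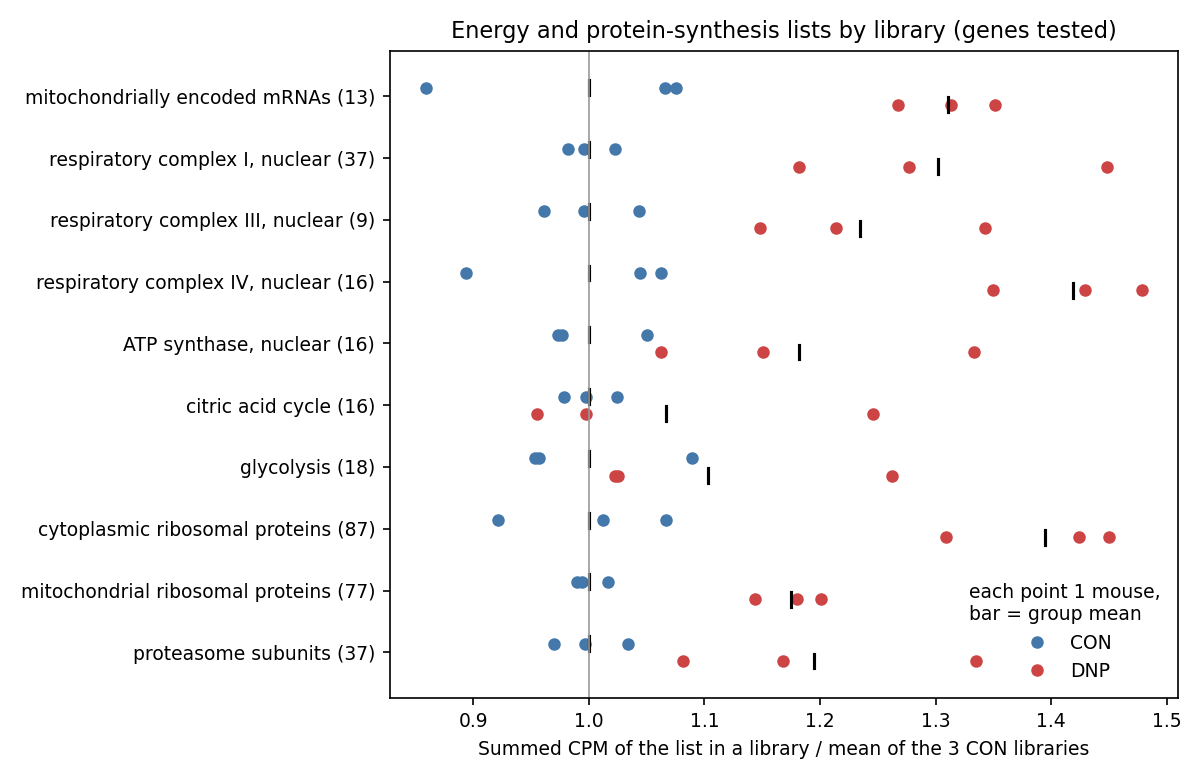
Summed CPM of 10 gene lists in each mouse, divided by the mean of the 3 CON mice, with CON in blue, DNP in red, bars at the group means and the number of genes in brackets. The DNP mice lie above the CON mice in the respiratory chain lists drawn, which leave out complex II, and in the ribosomal and proteasome lists. The citric acid cycle and glycolysis overlap.

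Ribosomal protein genes formed the list with the most members at the threshold. Of 87 cytoplasmic ribosomal protein genes tested, 55 were higher in DNP and 0 lower (63.2%), 85 had a positive log2 fold change, and the median was 0.48. Their sum was 5593, 4829 and 5308 CPM in CON and 6863, 7605 and 7466 CPM in DNP, and the groups did not overlap for 66 genes. Rps9 (chromosome 7 from 3703993 to 3706897), of the small subunit, had 108, 107 and 102 CPM in CON and 143, 166 and 158 CPM in DNP, a log2 fold change of 0.56 (SE 0.12). Rpl22l1, a paralogue of the large-subunit gene Rpl22, had 24.4, 23.8 and 23.2 CPM in CON and 38.2, 36.9 and 39.1 CPM in DNP, with almost no spread within either group. The count at the threshold was 36 without DNP replicate 2 and 13 with region marker scores as covariates, and the median lay between 0.41 and 0.53 whichever library was left out. Many ribosomal protein genes have near-identical processed pseudogenes, such as Rpl36-ps12 (17.98, 16.8 and 18.6 against 28.7, 31.3 and 30.9 CPM), and how reads of such copies were shared is not given in the sources used here.

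These genes are known for a pyrimidine run at the start of their mRNAs, the 5′ terminal oligopyrimidine motif, through which mTORC1 regulates translation. The 6 ribosomal protein genes of smallest p with a single RefSeq start are shown to let this run be compared from 20 bases before to 10 bases from the start (GRCm38.p6), with runs of a C and at least 7 further pyrimidines in capitals, which are cut at the window's end: Rpl22l1 (chr3:28805488-28805517, plus strand), Rps9 (chr7:3704021-3704050, plus), Rpl14 (chr9:120571497-120571526, plus), Rps26 (chr10:128626497-128626526, minus), Rps25 (chr9:44407694-44407723, plus) and Rps3a1 (chr3:86142659-86142688, minus).
Rpl22l1: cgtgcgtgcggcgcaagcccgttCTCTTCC
Rps9: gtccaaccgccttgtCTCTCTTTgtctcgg
Rpl14: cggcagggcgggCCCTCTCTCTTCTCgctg
Rps26: agcgggtcgggcaagccgccggatCCTCTT
Rps25: tCCTTTTTTTCCgacatcttagcgaggctg
Rps3a1: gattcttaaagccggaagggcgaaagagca
Of the 87 genes, 62 had a promoter entry, and 31 of these (50.0%) held such a run within 20 bases of a start, against 2022 of 12437 tested genes with an entry (16.3%) and 2 of 33 complex I genes (6.06%). Runs were searched on the sense strand, on either side of the annotated start, after the values of the list were known. A marked run therefore need not be the motif of the mRNA, and that of Rps25 ended before the start. Rps3a1, without a run in this window, was higher in DNP like the others (148, 135 and 148 against 199, 215 and 212 CPM).

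The ribosomes of mitochondria, which translate the mitochondrially encoded mRNAs, had 13 of 77 protein genes higher and 0 lower, a median of 0.24 and no overlap between groups for 30 genes. Mrpl52 had 10.02, 10.7 and 10.2 CPM in CON and 16.7, 17.4 and 18.3 CPM in DNP, and Mrpl13 21.3, 22.0 and 21.9 CPM in CON and 34.3, 30.7 and 30.7 CPM in DNP. The count was 7 or 8 when CON replicate 1, CON replicate 3 or DNP replicate 3 was left out, and 6 with region marker scores as covariates. Factors of cytoplasmic translation were not shifted as a list, with 5 of 68 genes higher and 3 lower and a median of 0.06, and 0 higher without CON replicate 3. Eef1g, of the elongation factor 1 complex, was among the higher genes (113, 101 and 97.9 against 139, 142.7 and 134 CPM) and Eif4g3, a long scaffold gene of initiation, among the lower ones (342, 308 and 339 against 244, 209 and 242 CPM). Cytoplasmic tRNA synthetases had 1 of 19 higher and 0 lower.

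Protein breakdown divided by gene class. Of 37 proteasome subunit genes, 7 were higher and 0 lower, 36 had a positive log2 fold change, and the median was 0.29. Psma5 and Psmb4, of the core particle, differed by 0.48 (SE 0.17) and 0.41 (SE 0.15), with 104, 98.2 and 99.6 CPM of Psmb4 in CON and 142, 116 and 144 CPM in DNP. No proteasome gene was called by DESeq2, and leaving out CON replicate 3 gave a count of 0, DNP replicate 1 a count of 1 and DNP replicate 3 a count of 3, against 12 when DNP replicate 2 was omitted. The count was 1 with the length offset and 0 with region marker scores as covariates. Lysosomal genes had 3 of 34 higher (8.82%, against 5.71% of all genes). Among them was Ctsz with 32.2, 34.6 and 33.7 CPM in CON and 46.4, 46.1 and 46.4 CPM in DNP.

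Large ubiquitin ligases of the HECT and RING classes, in contrast, had 11 of 25 genes lower and 0 higher (44.0%, against 5.46% of all genes), and all 25 had a negative log2 fold change, with a median of -0.35. Hectd4 (ENSMUSG00000042744, chromosome 5 from 121220219 to 121368577) had 605, 654 and 574 CPM in CON and 372, 361 and 334 CPM in DNP, a log2 fold change of -0.78 (SE 0.13), with an adjusted p of 1.67e-07 in DESeq2 and 0.294 in edgeR. Herc1 had 418, 426 and 417 CPM in CON and 303, 285 and 290.1 CPM in DNP, and Herc2 412, 336 and 430.1 CPM in CON and 273, 228 and 211 CPM in DNP. The groups did not overlap for 14 of the 25 genes, and 5 to 7 genes were lower when CON replicate 3, DNP replicate 2 or DNP replicate 3 was left out. With the offset for transcript length described below, 2 of the 25 genes were lower. Chaperones of the heat-shock families had 4 of 69 higher and 1 lower (5.8% and 1.45%, against 5.71% and 5.46% of all genes). Hspa8 had 501, 350.0 and 403 CPM in CON and 974, 616 and 677 CPM in DNP, and the long gene Dnajc13 differed by -0.51 (SE 0.14). The unfolded protein response of the endoplasmic reticulum had 0 of 26 higher and 1 lower.

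Of the lists of chromatin and transcription, those of histone-modifying enzymes, remodellers and coregulators had more members lower in DNP than higher. Of 45 histone methyltransferase, demethylase and acetyltransferase genes, 14 were lower and 0 higher (31.1%), with a median of -0.40. Ash1l (ENSMUSG00000028053, chromosome 3 from 88950622 to 89079375), a methyltransferase of histone H3, had 245, 219 and 246 CPM in CON and 137.8, 142 and 133 CPM in DNP, a log2 fold change of -0.78 (SE 0.14). Setd1b, of the same class, had 78.4, 114.5 and 84.9 CPM in CON and 50.5, 58.6 and 47.8 CPM in DNP, and Ep300, an acetyltransferase, differed by -0.62 (SE 0.17). This list depended on CON replicate 2: without it 8 genes were lower and the median was -0.21. It was 9 genes without DNP replicate 1 or DNP replicate 3, 5 with the length offset described below, and 1 with region marker scores as covariates, when 2 were higher and the median was -0.01.

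Subunits of chromatin remodelling complexes had 8 of 31 lower and 0 higher, among them Bptf (148, 189 and 162 against 124, 97.9 and 102 CPM) and Arid1b (132, 122 and 124 against 83.4, 98.5 and 84.3 CPM), and 5 when CON replicate 2 or DNP replicate 3 was left out. Mediator, cohesin and nuclear receptor coregulators had 9 of 29 lower and 0 higher (31.0%), a median of -0.35, and 7 members called by DESeq2. The 3 leading members bind nuclear hormone receptors: Ncoa6 had 106, 110.6 and 106 CPM in CON and 54.5, 69.8 and 53.5 CPM in DNP, Ncoa1 had 173, 155 and 171 CPM in CON and 107, 102 and 101 CPM in DNP, and Ncoa2 differed by -0.61 (SE 0.14). Between 9 and 11 members of this list were lower whichever library was left out. Med14, the backbone of the mediator complex, had 90.7, 75.3 and 88.2 CPM in CON and 62.3, 58.2 and 53.3 CPM in DNP.

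Zfp zinc-finger genes, the largest list, had 23 of 374 lower and 8 higher, with a median of -0.09 that was 0.09 with region marker scores as covariates. Neither share, 6.15% lower and 2.14% higher, was above the background by more than 1 percentage point. Within it, Zfp526 (12.1, 14.4 and 12.0 against 5.94, 7.51 and 5.52 CPM) and Zfp236 had the smallest p. Splicing proteins had 2 of 76 higher (2.63%) and 4 lower (5.26%), neither above the share of all genes. The lower ones included Prpf8 (310.1, 380.1 and 315 against 259, 227 and 195 CPM) and Snrnp200 (188, 241 and 191 against 134, 140.3 and 118 CPM), core proteins of the spliceosome with long mRNAs. The split of the splicing list turned with region marker scores as covariates (9 higher, 0 lower, median 0.26 against -0.02) and without CON replicate 2 (4 higher, 2 lower). Core and linker histone genes, whose mRNAs are short, had 3 of 28 higher and 0 lower, Hist1h2bc among them at 0.66 (SE 0.20).

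Across all genes, direction followed transcript length. When the 18501 genes were split into 10 bins by the summed exon length behind the deposited FPKM values, the shortest bin (57 to 1259 bases) had 262 genes higher and 47 lower in DNP, and the longest (13411 to 134526 bases) had 23 higher and 295 lower. The median log2 fold change declined in every step, from 0.17 in the shortest to -0.21 in the longest bin. Every DNP mouse showed the slope: relative to the CON mean, the medians of the shortest bin were 0.18, 0.19 and 0.24 and those of the longest bin -0.22, -0.17 and -0.23 in the DNP mice, while those of the CON mice lay between -0.05 and 0.08 in both bins. It was as large without CON replicate 2 and DNP replicate 1 together (0.17 and -0.21). In bins of the longest annotated transcript of protein-coding genes, added after the data were seen, 292 genes were higher and 12 lower in the shortest bin and 12 higher and 335 lower in the longest.

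Many of the lists above differ in length, so their values were also computed after removing the length trend of each library with a spline offset. The median of the 18501 genes was then 0.005. The median fell from 0.48 to 0.39 for cytoplasmic ribosomal proteins, from 0.44 to 0.32 for complex I and from 0.40 to 0.25 for the mitochondrially encoded mRNAs. It went from -0.35 to -0.16 for the large ubiquitin ligases and from -0.48 to -0.22 for ankyrins and spectrins. Length is tied to the gene families themselves, so the offset can also remove differences between families, and whether RNA quality or fragmentation differed between the groups was not tested, as the files used here hold no such measure.

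**Figure D3:**
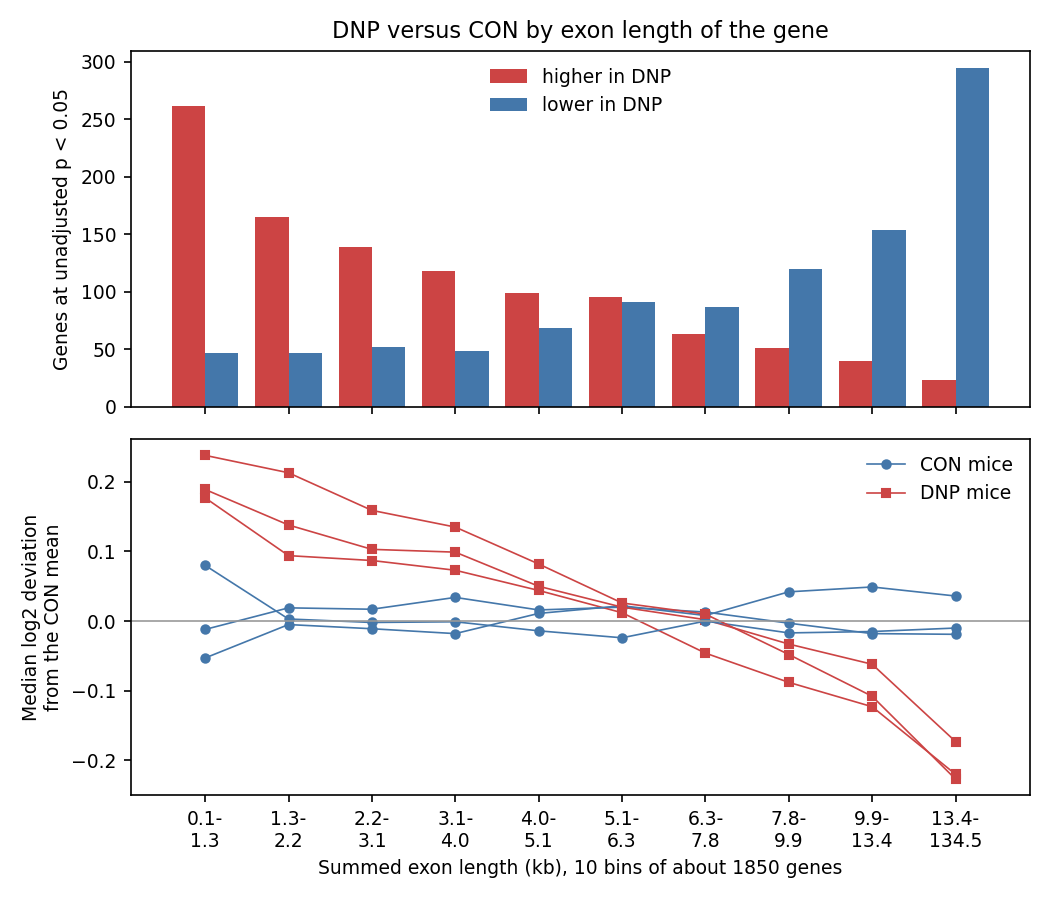
Upper panel, number of genes higher (red) and lower (blue) in DNP at an unadjusted p under 0.05 in 10 bins of summed exon length (kb). Lower panel, median log2 deviation from the CON mean in each mouse, which declines with length in the 3 DNP mice (red) from 0.24 at most to -0.23 at least and stays between -0.05 and 0.08 in the 3 CON mice (blue).

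Genes of excitability and of the axonal membrane skeleton were lower in part. Of 18 ankyrin, spectrin and node scaffold genes, 7 were lower and 0 higher, with a median of -0.48, and 3 were lower without DNP replicate 3. With the length offset 2 of the 18 were lower, and with region marker scores as covariates 10. Sptan1, the alpha spectrin of axons, had 1392, 1606 and 1429 CPM in CON and 1160, 922 and 927 CPM in DNP, Ank2 903, 1109 and 962 CPM in CON and 776, 556 and 414 CPM in DNP, and Cntnap1, of the paranodal junction, 368, 478 and 349.8 CPM in CON and 306, 219 and 229.7 CPM in DNP. Potassium channel subunits had 9 of 80 lower and 1 higher. Kcnj3 and Kcnj6, which form the G protein-gated channel that GABA-B and opioid receptors open, had 42.4, 40.9 and 50.4 against 23.4, 27.8 and 23.8 CPM and 25.4, 13.4 and 26.9 against 8.69, 9.56 and 8.80 CPM. The median of the potassium channel list, -0.22, changed sign without CON replicate 1 (0.05), and 5 genes were lower when DNP replicate 2 or DNP replicate 3 was left out. Sodium channel genes had 3 of 13 lower and 1 higher, with Scn2a at 282, 312 and 305 CPM in CON and 98.3, 190.9 and 84.7 CPM in DNP, and voltage-gated calcium channel genes 2 of 24 lower, Cacnb4 among them (353, 498 and 378 against 207, 238 and 256 CPM), but 7 of 24 without DNP replicate 2.

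Protocadherins, adhesion molecules whose clustered isoforms give neurons their surface identity, had 17 of 68 genes lower and 1 higher (26.5% at the threshold), with a median of -0.44. The clustered genes did not all share this: of 21 Pcdhb genes 1 was lower and 1 higher (9.52%, against 11.2% of all genes), with a median of -0.17. Pcdhga12 had 25.9, 33.3 and 29.6 CPM in CON and 13.5, 14.3 and 14.3 CPM in DNP, Pcdhga11 29.9, 34.5 and 35.0 CPM in CON and 13.2, 15.4 and 14.6 CPM in DNP, and Pcdhac2 63.0, 43.1 and 59.1 CPM in CON and 32.3, 17.5 and 18.8 CPM in DNP. Isoforms of the alpha and of the gamma cluster share their last exons, so their counts are uncertain as separate genes. The median of the whole list differed little with the length offset (-0.43). Of 31 semaphorin, plexin and neuropilin genes, which guide axons, 4 were lower and 2 higher: the receptor gene Plxna1 had 177, 147 and 177 CPM in CON and 108, 90.2 and 105 CPM in DNP, whereas the ligand gene Sema3a had 13.8, 10.6 and 11.4 CPM in CON and 20.5, 20.0 and 21.9 CPM in DNP. Lrp1, a giant endocytic receptor, had 1025, 1192 and 1046 CPM in CON and 693, 610.3 and 561 CPM in DNP.

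Hormone-responsive genes differed in both directions. Of 29 genes known to be induced by glucocorticoids in brain or other tissues, 14 were higher and 2 lower (55.2% at the threshold, against 11.2% of all genes in either direction), the median was 0.62, and DESeq2 called 11. Lcn2 and Mt1 belong to this list as well. Sgk1, a kinase gene and a classical target, had 64.5, 57.0 and 91.5 CPM in CON and 262, 148 and 155 CPM in DNP, a log2 fold change of 1.41 (SE 0.34). Plin4, of lipid droplets, had 4.25, 4.78 and 4.495 CPM in CON and 38.7, 8.46 and 19.2 CPM in DNP. Arrdc2 (13, 12.1 and 11.2 against 45.1, 25.3 and 25.4 CPM), Hif3a (7.83, 6.91 and 8.92 against 21.4, 14.6 and 13.1 CPM), Cebpd (4.25, 3.14 and 3.93 against 8.84, 10.99 and 6.50 CPM) and Tgm2 (15.99, 15.4 and 15.6 against 22.0, 27.9 and 22.2 CPM) followed, all without overlap. Sgk1, Plin4, Arrdc2 and Hif3a were highest in DNP replicate 1, and the list median was 0.48 without that library.

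Other well-known targets in the list did not share this pattern. Fkbp5, which feeds back on the receptor, had 35.2, 10.1 and 31.2 CPM in CON and 35.3, 37.6 and 32.4 CPM in DNP, Tsc22d3 had 42.6, 61.8 and 64.7 CPM in CON and 117, 50.5 and 71.1 CPM in DNP, and both overlapped. The genes lower in DNP were Klf9, a transcription factor gene with 184, 181 and 181 CPM in CON and 116, 133 and 120.7 CPM in DNP, and Dusp1, a phosphatase gene that neuronal activity also induces, with 55.5, 78.5 and 73.5 CPM in CON and 42.3, 42.6 and 35.3 CPM in DNP. Immediate early genes as a list had 3 of 29 lower (10.3%, against 5.46% of all genes) and 0 higher. Their median was -0.42, or -0.05 without CON replicate 3, and 1 was lower without DNP replicate 3. Clock genes had 1 of 22 lower, Nr1d1 (235, 246 and 213 against 102, 168 and 173 CPM). That share, 4.55%, was below the 5.46% of all genes, while 21 of the 22 had a negative log2 fold change. The hour at which each brain was taken is not given in the labels.

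The glucocorticoid receptor binds an imperfect palindrome, and the half-sites GNACA and TGTNC with 3 bases between them were searched for on both strands in the 250 bases before each RefSeq start, after the values of the list were known. The pair was present for 4 of the 23 listed genes with a promoter entry (17.4%), against 43 of 12437 tested genes (0.346%). The list holds genes already known to respond to the hormone, so these shares do not bear on DNP against CON. These 4 windows are shown because they hold the site type through which the hormone acts, with the pattern in capitals: Fam107a (chr14:8309870-8309912, minus strand), Map3k6 (chr4:133240622-133240664, plus), Mt1 (chr8:94178980-94179022, plus) and Sgk1 (chr10:21993687-21993729, plus).
Fam107a: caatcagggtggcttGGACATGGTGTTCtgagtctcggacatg
Map3k6: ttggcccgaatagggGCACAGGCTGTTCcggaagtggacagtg
Mt1: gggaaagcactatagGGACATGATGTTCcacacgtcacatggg
Sgk1: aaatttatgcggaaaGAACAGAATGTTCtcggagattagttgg
Of these 4 genes, Map3k6 (4.64, 3.35 and 4.57 against 7.03, 8.26 and 9.06 CPM), Mt1 and Sgk1 were higher in every DNP library. Fam107a overlapped, with 296, 481 and 360 CPM in CON and 224, 350 and 305 CPM in DNP. A match describes these letters and does not show that the receptor binds there.

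Metallothioneins and targets of NRF2, the regulator of antioxidant genes, had 8 of 27 higher and 0 lower (29.6%), with a median of 0.41, and 3 were higher and 1 lower with region marker scores as covariates. Mt1 had 108, 154 and 140.4 CPM in CON and 266, 199 and 222 CPM in DNP, and its neighbour Mt2 32.9, 51.2 and 48.0 CPM in CON and 105, 67.7 and 68.6 CPM in DNP. Both bind zinc and are induced by metals as well as by glucocorticoids. Their 150 bases before the start, Mt1 at chr8:94178939-94179088 and Mt2 at chr8:94172468-94172617 (both plus strand, GRCm38.p6), are shown with TGCACAC, a form of the metal-response core, in capitals on either strand.
Mt1: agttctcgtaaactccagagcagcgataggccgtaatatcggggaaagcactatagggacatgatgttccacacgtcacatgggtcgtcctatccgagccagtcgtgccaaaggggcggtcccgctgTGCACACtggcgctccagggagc
Mt2: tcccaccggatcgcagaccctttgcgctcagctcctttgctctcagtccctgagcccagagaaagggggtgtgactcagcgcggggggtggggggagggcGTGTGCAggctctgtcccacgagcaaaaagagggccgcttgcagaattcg
TGCACAC was found before the start of 2 of the 3 metallothionein genes and of 3.92% of all tested genes with an entry. The other form searched, TGCGCAC, was found in 0 of the 3 and in 6.06% of all. Further forms of the core were not searched or marked, so the windows may hold unmarked sites. Gpx3, a secreted glutathione peroxidase gene, had 4.58, 4.49 and 4.14 CPM in CON and 34.8, 12.97 and 9.33 CPM in DNP, Fth1, the ferritin heavy chain gene, 1527, 1059 and 1293 CPM in CON and 3578, 1869 and 2841 CPM in DNP, and Txn1 30.2, 28.6 and 32.2 CPM in CON and 41.1, 40.1 and 45.5 CPM in DNP. Gpx3 and Fth1 were highest in DNP replicate 1, the library with hindbrain markers.

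The adult globin genes were higher in every DNP mouse. Of 10 erythroid genes, 6 were higher and 0 lower, 2 had a negative log2 fold change, 5 were called by DESeq2, and the count was 6 whichever library was left out. Hbb-bs (ENSMUSG00000052305, chromosome 7 from 103826534 to 103828096), an adult beta globin gene, had 39.1, 32.2 and 28.02 CPM in CON and 143, 90.7 and 112 CPM in DNP, a log2 fold change of 1.80 (SE 0.23). Hba-a1 had 104, 92.7 and 104 CPM in CON and 293, 223 and 263 CPM in DNP, Hba-a2 and Hbb-bt differed by 1.52 (SE 0.21) and 1.55 (SE 0.25), and Alas2, of erythroid haem synthesis, by 1.69 (SE 0.42). The paired alpha and the paired beta globin genes are near-identical, so the split of reads within each pair is uncertain. How much blood the brains held when frozen was not measured, and its part in these values was not tested. Of 20 lymphocyte and neutrophil genes, 6 had enough counts, and S100a9, of neutrophils, had 5, 0 and 8 counts in CON and 86, 52 and 7 in DNP, so that the groups overlapped.

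In the vessel wall, Ly6a (7.76, 16.3 and 12.7 against 28.6, 29.9 and 30.3 CPM) and Ly6c1 (17.7, 16.6 and 15.2 against 27.7, 31.8 and 31.6 CPM), surface proteins of brain endothelium, were higher. Of 17 endothelial genes, 3 were higher (17.6%, against 5.71% of all genes) and 1 lower, with 10 positive and 7 negative log2 fold changes. Their median, 0.07, was -0.03 without DNP replicate 2 and -0.07 without DNP replicate 3. MHC class I genes had 2 of 24 higher (8.33%, against 5.71% of all genes), B2m among them (53.7, 62.3 and 57.5 against 78.7, 70.9 and 82.5 CPM), and a median of 0.44. Interferon-induced genes had 4 of 37 higher and 0 lower, a count that was 1 without CON replicate 3 and 9 without CON replicate 2.

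Of 14 meningeal fibroblast markers, 7 were lower and 1 higher (57.1% at the threshold), with a median of -0.82 that was -0.19 with region marker scores as covariates, when 2 genes were lower. Igf2 is 1 of them, and the transporter gene Slc22a6 had 7.56, 6.70 and 8.85 CPM in CON and 3.11, 4.096 and 1.97 CPM in DNP. The summed level of the 14 markers overlapped, with 527.9, 687.5 and 664.9 CPM in CON and 725.6, 465.9 and 358.0 CPM in DNP. In the matrix, laminins and related proteins had 5 of 33 lower and 0 higher with a median of -0.01, and proteoglycans 6 of 27 lower and 1 higher with a median of 0.02, so that about as many members lay above 0 as below. Lamc3, a laminin of basement membranes, had 6.70, 9.34 and 8.71 CPM in CON and 2.46, 4.44 and 2.63 CPM in DNP, Fmod, a small collagen-binding proteoglycan, 15.8, 25.8 and 21 CPM in CON and 6.95, 11.7 and 6.17 CPM in DNP, and Gpc6, a cell-surface heparan sulphate proteoglycan, 6.37, 16.96 and 8.43 CPM in CON and 3.26, 1.64 and 3.02 CPM in DNP. Slc13a4, a sulphate transporter of choroid plexus and meninges, had 17.6, 17.8 and 20.9 CPM in CON and 4.92, 9.15 and 9.79 CPM in DNP. Collagens had 2 of 43 higher and 2 lower. How much of the meninges and of the choroid plexus stayed with each brain at dissection was not measured.

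**Figure D4:**
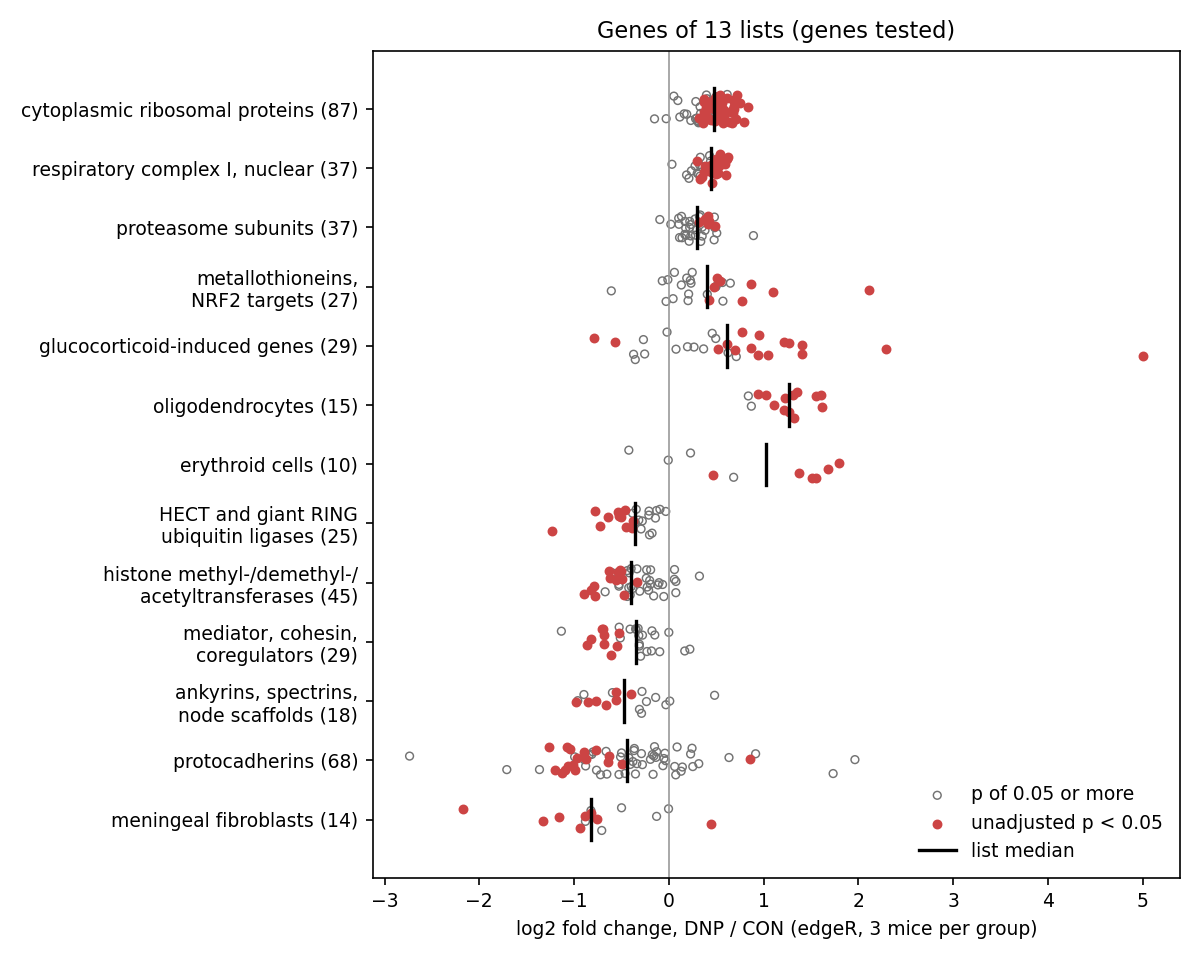
Log2 fold change of each tested gene (point) in 13 lists, filled red at an unadjusted p under 0.05, with the list median as a black bar. Medians are positive in the upper 7 lists, up to 1.26 in oligodendrocytes, and negative in the lower 6, down to -0.82 in meningeal fibroblasts.

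Myelin genes were higher with a wide spread. Of 15 oligodendrocyte markers, 12 were higher and 0 lower, and the median was 1.26, but DESeq2 called 0 of them. Their sum was 3579, 3353 and 2607 CPM in CON and 10890, 4308 and 8049 CPM in DNP. Mobp, a myelin protein gene, had 675, 543 and 506 CPM in CON and 2330, 886 and 1828 CPM in DNP, and Apod, a lipid carrier of oligodendrocytes, 90.1, 117 and 67.8 CPM in CON and 445, 148 and 246 CPM in DNP. DNP replicate 1, with the hindbrain markers, was highest for each of these values. Leaving out CON replicate 3 or DNP replicate 1 reduced the count to 3, leaving out CON replicate 2 or DNP replicate 3 reduced it to 7, and leaving out CON replicate 2 and DNP replicate 1 together reduced it to 0. The median was 0.93 without DNP replicate 1 and 0.63 with region marker scores as covariates, when 1 gene was higher. Monoamine neuron genes, most of whose cell bodies lie in the brainstem, had 6 of 17 higher and a median of 2.48. Without DNP replicate 1 the count was 1 and the median 0.89, and with region marker scores as covariates the median was negative (-0.17). Qdpr, which recycles the cofactor of monoamine synthesis and is expressed in oligodendrocytes as well, had 89.0, 80.9 and 66.4 CPM in CON and 171, 188 and 329 CPM in DNP.

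Families defined by the letters of their symbols, with no choice of members, gave a similar order. Of 79 symbol stems with at least 20 tested genes, the ribosomal stems Rpl (56 of 106 higher, 0 lower, pseudogenes included) and Rps (41 of 80 higher, 0 lower) led, followed by mt (15 of 36 higher, 0 lower) and Cox (9 of 25 higher, 0 lower). Mrpl had 10 of 51 higher (19.6%, against 5.71% of all genes) and 0 lower. On the lower side, Usp, the deubiquitinases, had 9 of 48 lower (18.8%, against 5.46% of all genes) and 0 higher. Vps, of endosomal sorting, had 6 of 32 lower (18.8%) and 0 higher, and Zbtb transcription factors 6 of 42 lower (14.3%) and 0 higher. Dusp (4 of 21 lower, 2 higher), Map (7 of 45 lower, 1 higher) and Cdh (3 of 20 lower, 1 higher) held members in both directions. Median exon lengths were 10488 bases for Usp, 7470 for Vps and 7782 for Zbtb, against 5098 for all genes. Values with the length offset were not computed for stems. The solute carriers (Slc) had 16 of 297 higher and 20 lower, and Tmem 15 of 217 higher and 11 lower, both near the background. By gene class, 106 of 990 processed pseudogenes were higher and 46 lower, and 825 of 14972 protein-coding genes were higher and 889 lower.

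**Figure D5:**
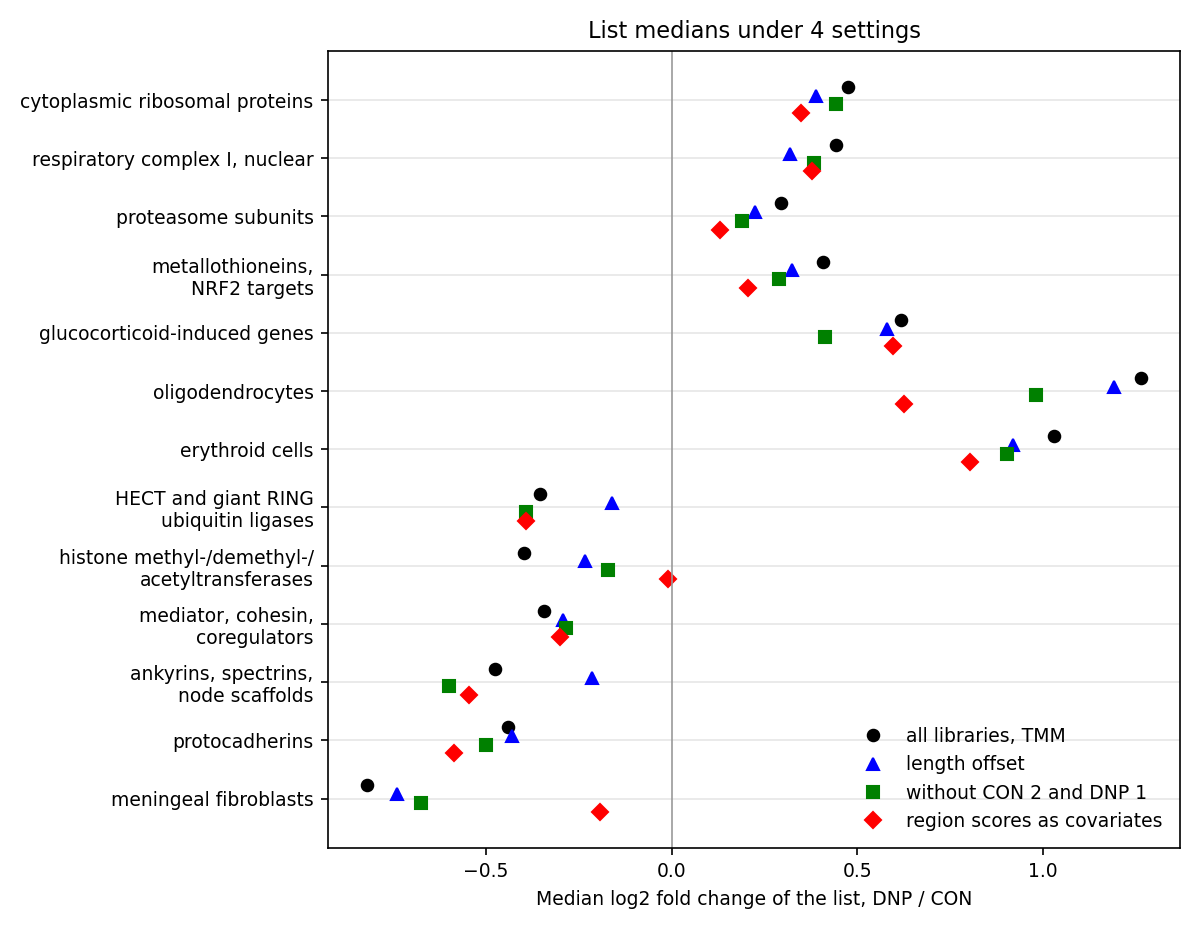
Median log2 fold change of 13 lists with all libraries (black circles), with the length offset (blue triangles), without CON replicate 2 and DNP replicate 1 (green squares) and with region marker scores as covariates (red diamonds). Every list keeps its sign in the 4 settings, and the histone modifier list is nearest to 0, at -0.01 with the covariates.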

How the data were processed

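Whole-brain RNA of 9 mice, 3 per group, had been sequenced as paired-end poly(A) libraries that do not mark strand. The processing notes name FastQC 0.11.9, fastp, Bowtie2 2.3.4.1, HISAT2 2.1.0 and StringTie 1.3.3b, with GRCm38. The authors deposited a whole-number count for each gene and an FPKM value. An FPKM here is the count over gene length and library total, which leaves no TMM factor in it. How reads that match several genes were counted is not given in the sources used here.

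Low genes were removed with filterByExpr (minimum count 10). All 9 libraries entered 1 quasi-likelihood fit (edgeR 4.0.16 in R 4.3.3, TMM), from which DNP was contrasted with CON, and p-values were adjusted over all tested genes by Benjamini-Hochberg at a threshold of 0.05. Alternatives were DESeq2 1.42.0, limma 3.58.1 on log2(FPKM + 1) or log2(FPKM + 0.1), other scalings and filters, a length offset (natural spline, 5 degrees of freedom), region marker scores, blocking on the replicate number and leaving out single libraries. The fit was tested on simulated counts. The biological coefficient of variation was 36.5%. Totals ran from 13806845 to 16008129 counts, so precision is poorest for genes of few counts, and a group at 3 counts or fewer in every library is given by its counts, without a fold.

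The comparison, its 75 gene lists and the alternatives were chosen with earlier results of these data known, and the lists followed through every alternative were chosen after the values of all lists were seen. List counts carry no test of their own. Genes were named by rule among those averaging 1 CPM or more in which the groups were disjoint, namely the 12 of smallest p and the 5 of largest change in each direction. In each list, up to 4 members of smallest p, or any member of a list under 15, were also named, as were up to 3 of smallest p in a family of one symbol stem (Rps26). Arrdc2, Cebpd, Eef1g, Fam107a, Fkbp5, Klf9, Mt2, Rps25, Rps3a1, Sgk1, Tgm2 and Tsc22d3 fall outside this rule and were named after their values were seen. Promoter and start sequences are from RefSeq on GRCm38.p6, with 250 bases before and 50 after each start.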

Additional observations from a re-analysis of the deposited data

How the results depend on the processing

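No gene passed an adjusted p of 0.05 in edgeR with any library left out except 1 gene, B3galt1, without CON replicate 2 (range 0 to 1), against 342 genes in DESeq2 with all libraries. At an unadjusted p under 0.05, between 719 and 1009 genes were higher and between 589 and 1165 lower with 1 library left out, and 681 were higher without CON replicate 2 and DNP replicate 1 together. Groups of 3 against 2 did not overlap for 4319 to 6043 of 18501 genes, against 3371 for 3 against 3. Leaving out a library can only keep or raise this count. Replicate numbers did not pair the samples (correlations of deviations -0.35, -0.24 and 0.15), and not every sample correlated best with its own number. With a replicate block, 895 genes were higher and 793 lower and 0 passed an adjusted p of 0.05 in edgeR.

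The medians of the followed lists kept their sign throughout. The length offset gave 0.25 for mitochondrially encoded mRNAs, 0.32 for complex I, 0.39 for cytoplasmic and 0.19 for mitochondrial ribosomal proteins, -0.16 for ubiquitin ligases, -0.22 for ankyrins and 0.92 for erythroid genes. Region marker scores as covariates gave 0.27 for mitochondrially encoded mRNAs, 0.35 for cytoplasmic ribosomal proteins, 0.13 for the proteasome, -0.01 (-0.009) for histone modifiers, -0.59 for protocadherins, -0.19 for meningeal, 0.80 for erythroid and 0.63 for oligodendrocyte genes. Without CON replicate 2 and DNP replicate 1 together the medians were 0.19 for the proteasome, -0.17 for histone modifiers, -0.29 for mediator and coregulators, 0.41 for glucocorticoid-induced and 0.90 for erythroid genes. In limma on log2(FPKM + 1) they were -0.24 for mediator and coregulators, -0.24 for protocadherins, 0.46 for glucocorticoid-induced, -0.45 for meningeal and 0.68 for erythroid genes, and with a pseudocount of 0.1 they were 0.29 for mitochondrial ribosomal proteins and -0.26 for mediator and coregulators. Genes with a mean of at least 1 CPM gave 1.45 for the erythroid list. With 1 library left out, medians ranged from -0.50 to -0.21 for histone modifiers, from -0.48 to -0.28 for mediator and coregulators, from -0.65 to -0.37 for protocadherins, from 0.48 to 0.67 for glucocorticoid-induced genes, from 0.95 to 1.09 for erythroid genes and from -0.81 to -0.05 for immediate early genes. With region marker scores as covariates the sign turned for Mirt1 (0.20), Sp5 (0.18), Fkbp5 (-0.60) and Fam107a (0.43). The cause of these shifts was not tested.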
